A study of Mus musculus with 2 samples.

Results

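The annexins are the 9 genes Anxa1, Anxa2, Anxa3, Anxa4, Anxa5, Anxa6, Anxa7, Anxa8 and Anxa11, found by their symbols among the 31053 genes that both expression matrices list. Anxa9 and Anxa10, the other annexin genes listed, lie outside that choice and are given where they bear on it. The 2 libraries came from lungs of Pclaf wild-type (WT) mice and of germline Pclaf knockout (KO) mice, 1 library per genotype, taken 1 week after bleomycin at 1.35 U/kg was instilled into the airway to injure the epithelium. The methods give male animals aged 8 to 10 weeks, and cells sorted as Cd31-/Cd45-/Epcam+, a gate meant to keep epithelium and to remove endothelial and blood cells. How many animals stand behind a library is not given in the sources used here. With 1 library per genotype there is no spread between animals: values below carry exact 95% intervals that cover counting error only, and no p-value is given.

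Annexins are cytosolic proteins that bind acidic phospholipids when calcium rises. They dock on the inner face of damaged or curved membranes, where they help to reseal wounds, fuse vesicles and anchor the actin cortex, and several work in pairs with small EF-hand proteins of the S100 family. In the alveolus, cuboidal AT2 cells make surfactant and act as progenitors of the thin AT1 cells that exchange gas. On the way they pass through a Krt8-high transitional state in which the cell spreads and flattens, so the family was followed from AT2 through transitional to AT1 cells and then over the other cell types of the lung.

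The libraries differed in depth and in make-up. WT held 30669 barcodes, of which 30187 passed the filters with a median of 2127 UMIs (unique molecular identifiers, 1 per captured RNA molecule), and KO held 17172, of which 15637 passed with a median of 5957. Cells with epithelial markers made up 2.94% of the kept WT cells and 59.6% of the kept KO cells, while immune and endothelial markers, which the sort should remove, marked 34.2% and 23.4% of WT cells against 2.85% and 2.58% of KO cells. Pclaf itself was at 39.3 CPM (counts per 1000000 UMIs) over all kept WT cells and at 5.19 CPM in KO, so it was not at 0 in the knockout, and the pools differ in make-up. In AT2 cells it was at 8.43 CPM (17 UMIs) in WT and at 4.02 CPM (155 UMIs) in KO. A lower value in KO was not seen in every cell type. Pclaf was lower in KO in transitional cells (16.0 and 6.90 CPM), fibroblasts (14.4 and 6.86 CPM) and alveolar macrophages (114 and 15.3 CPM, on 574 and 6 UMIs). It was not lower in KO in non-alveolar macrophages (59.9998 and 71.1 CPM, on 565 and 22 UMIs) or club cells (1.56 and 4.99 CPM, on 1 and 36 UMIs). Both rest on few UMIs in 1 of the libraries, and no interval is given for them. A higher Pclaf level in KO is therefore not shown. Xist, which is silent in males, was at 254 CPM (WT) and 498 CPM (KO), which goes against the stated sex. The libraries shared 163 barcode sequences, 138 of them among kept cells.

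Cells were assigned by marker genes that hold no annexin. The AT2 gate held 374 WT and 4964 KO cells, the transitional gate 122 and 770, and the AT1 gate 85 and 475. Their defining genes lay where the names place them. Sftpc, surfactant protein C, was at 141565 CPM (WT) and 164997 CPM (KO) AT2 cells, and Ager, the AT1 receptor for advanced glycation end-products, at 8789 and 10412 CPM in AT1 cells. Krt8, the keratin of the transitional state, was at 1733 and 1641 CPM in transitional cells against 208 and 175 CPM in AT2 cells. Surfactant RNA outside the epithelium was not equal in the libraries: Sftpc was also seen at 293 CPM in WT T cells and at 1637 CPM in KO T cells. Whether it was free RNA or came from mixed droplets was not tested. In transitional cells Sftpc was at 9615 CPM (WT) and 27356 CPM (KO), and in AT1 cells at 16015 and 39535 CPM. AT2 RNA in these 2 gates was thus higher in KO by this gene, and its part in the annexin ratios was not tested.

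Promoter sequence is shown for 3 members whose levels along these cells differed in kind: Anxa2, which was several fold higher in transitional cells, Anxa8, which was near 0 in AT2 cells, and Anxa4, which was nearly level. The sequences are the bases before the RefSeq transcript start, in the direction of the gene (GRCm38.p6), cut where an annotated exon of the same gene begins. Capitals mark matches, on either strand, to the letters of 5 motifs, which were TGANTCA for AP-1, GGAATG for TEAD, TATAAA for the core promoter box read by the TATA-binding protein, CCCGCCC for the GC box, and for NF-kB its 10-letter form with 1 free base. No match overlapped another.
Anxa2, chr9:69453433-69453619, plus strand: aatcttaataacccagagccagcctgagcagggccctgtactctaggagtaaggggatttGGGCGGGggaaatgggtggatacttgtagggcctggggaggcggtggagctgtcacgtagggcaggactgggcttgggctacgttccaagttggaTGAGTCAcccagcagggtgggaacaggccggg
Anxa8, chr14:34085729-34085978, plus strand: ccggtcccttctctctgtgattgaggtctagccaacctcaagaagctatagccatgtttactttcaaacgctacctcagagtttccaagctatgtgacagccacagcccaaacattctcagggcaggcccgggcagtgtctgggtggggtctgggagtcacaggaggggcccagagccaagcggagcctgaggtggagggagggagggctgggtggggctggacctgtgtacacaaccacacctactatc
Anxa4, chr6:86793585-86793834, minus strand: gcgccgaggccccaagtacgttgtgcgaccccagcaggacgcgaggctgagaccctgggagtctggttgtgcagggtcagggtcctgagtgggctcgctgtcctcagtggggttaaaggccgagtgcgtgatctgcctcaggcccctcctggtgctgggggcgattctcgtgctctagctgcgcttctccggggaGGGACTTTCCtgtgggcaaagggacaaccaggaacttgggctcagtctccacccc

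In the 250 bases before the start, Anxa2 held an AP-1 match at 95 to 89 bases before it, 2 GC boxes and a TATA match, of which 1 GC box (24 to 18 bases) and the TATA match (17 to 12 bases) lie in the annotated exon, past the printed bases. Anxa1 held a TATA match at 32 to 27 bases and a TEAD match at 236 to 231 bases before its start. The Anxa1 window lies inside the annotated gene, which begins farther upstream. Anxa4 held 1 NF-kB match, while 1 of the listed Anxa7 windows and that of Anxa11 held a GC box each. No match to these letters lay in the windows of Anxa8 and Anxa5. Of the 32851 promoters in the table, 6.75% held the AP-1 letters, 12.6% the TEAD letters, 12.4% TATAAA, 23.4% the GC box and 0.356% the NF-kB letters. Among members higher in transitional cells, TATAAA was thus in the windows of Anxa1 and Anxa2 and the GC box in those of Anxa2, Anxa7 and Anxa11. Anxa5 and Anxa8, also higher there, held none of these letters. Of the members with a promoter only Anxa4 was not higher, so the letters cannot separate the groups. Promoters were found for 7 of the 9 members and none for Anxa3 and Anxa6. A match is a description of letters only.

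The genes lie apart in the genome (GRCm38, GENCODE vM21), also the 3 that share chromosome 14. Anxa1 (ENSMUSG00000024659) is on chromosome 19 from 20373428 to 20390944, Anxa2 (ENSMUSG00000032231) on chromosome 9 from 69453620 to 69491795, and Anxa3 (ENSMUSG00000029484) on chromosome 5 from 96793339 to 96845966. Anxa4 (ENSMUSG00000029994) is on chromosome 6 from 86736840 to 86793584, Anxa5 (ENSMUSG00000027712) on chromosome 3 from 36448923 to 36475894, and Anxa6 (ENSMUSG00000018340) on chromosome 11 from 54979108 to 55033445. Chromosome 14 carries Anxa7 (ENSMUSG00000021814) from 20455260 to 20480133, Anxa11 (ENSMUSG00000021866) from 25842156 to 25886804 and Anxa8 (ENSMUSG00000021950) from 34085981 to 34100571. All 3 chromosome 14 genes were higher in transitional than in AT2 cells, but Anxa8 was nearly absent from AT2 cells, whereas Anxa7 and Anxa11 were found in every cell type with a value.

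Most of the family was higher in transitional than in AT2 cells. In each library 7 of the 9 were 2-fold or more higher in transitional cells: Anxa1, Anxa2, Anxa3, Anxa5, Anxa7, Anxa8 and Anxa11. Over all genes with at least 50 UMIs over both cell types, 22.5% of 6558 in WT and 28.5% of 12491 in KO were as much higher. Anxa8 reached that minimum only through the transitional cells, so the family is summarised over the 8 members with 50 UMIs in AT2 cells alone, a filter chosen after the values were seen. Of these 8, 6 were higher in each library, beside 16.3% of 5110 genes in WT and 25.4% of 11828 in KO. Their median log2 ratio was 1.90 in WT and 1.99 in KO, beside 0.23 and 0.43 over all genes that passed. TMM scaling, which evens out the composition of the sums, gave 6 of the 9 in both libraries, with Anxa8 among them and without Anxa11. The share of all genes past 2-fold under TMM was not computed, so that count does not set the family apart. Without TMM scaling no member was 2-fold lower, beside 11.4% of genes in WT and 8.50% in KO.

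**Figure D1:**
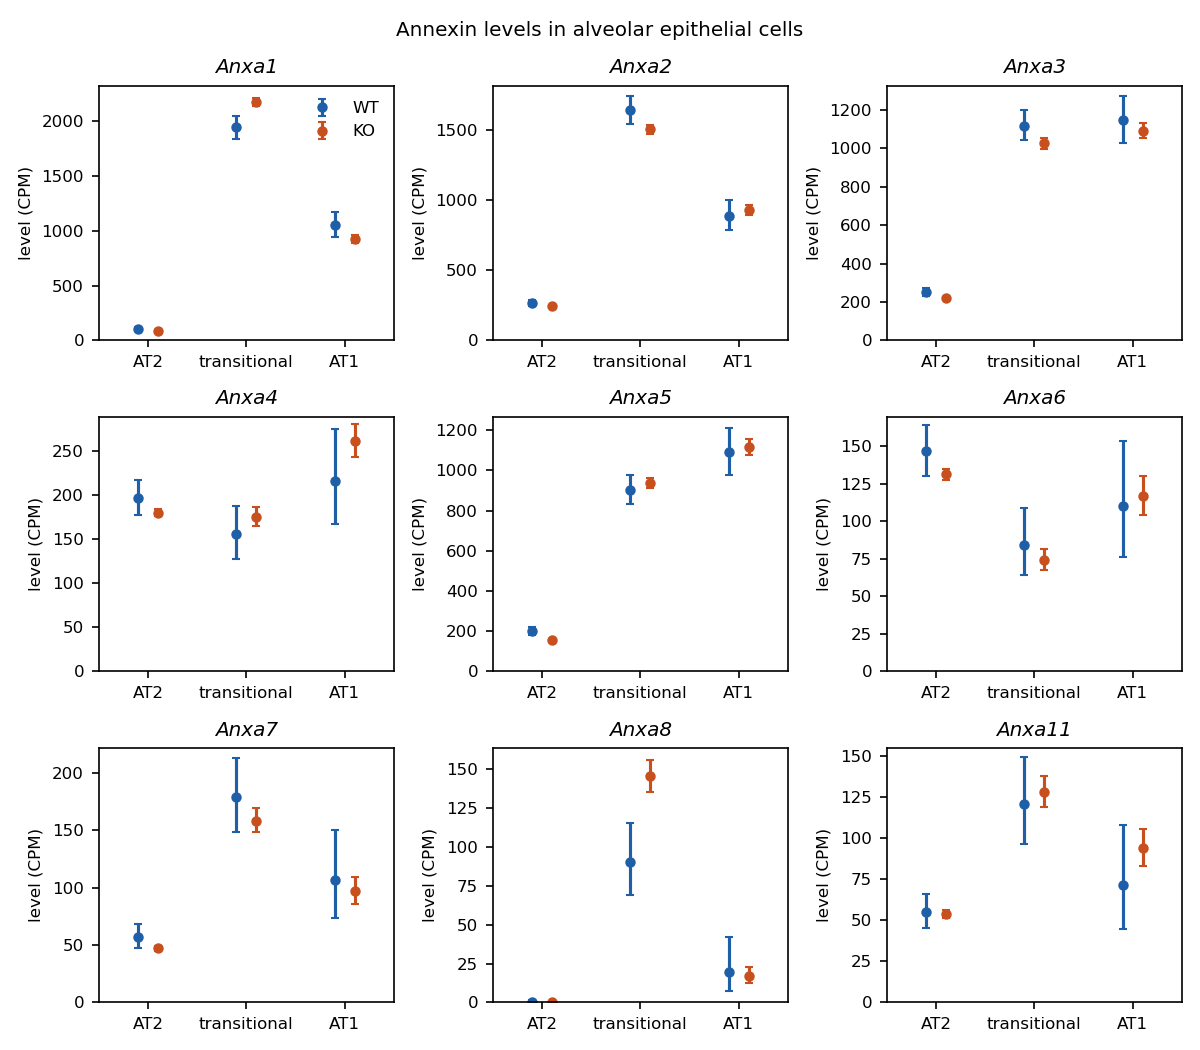
Level of each annexin, in counts per 1000000 UMIs (CPM, linear axes from 0), in AT2, transitional and AT1 cells of the WT (blue) and KO (orange) libraries. Points are summed UMIs per cell type and bars exact 95% Poisson intervals (counting error only). Anxa1, Anxa2, Anxa7, Anxa8 and Anxa11 are highest in transitional cells, Anxa3 and Anxa5 are as high or higher in AT1 cells, and Anxa6 is lowest in transitional cells.

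Anxa1, a glucocorticoid-induced protein whose cleaved N-terminus signals through formyl peptide receptors, was at 104 CPM (interval 90.5 to 119) in WT AT2 cells, 1945 CPM (1842 to 2052) in transitional cells and 1051 CPM (940 to 1172) in AT1 cells. In KO the same cell types held 88.4 (85.5 to 91.4), 2177 (2138 to 2216) and 925 CPM (890 to 961). The AT2 level was far below the other 2 in both libraries, and no interval overlapped another. The log2 ratio of transitional over AT2 cells was 4.22 (4.01 to 4.44) in WT and 4.62 (4.57 to 4.68) in KO. This placed Anxa1 above 99.3% of the tested genes in WT and above 98.5% in KO.

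Anxa2, the partner of S100a10 in a complex that binds tissue plasminogen activator and plasminogen at the cell surface, followed the same order at a higher AT2 level. It was at 265 CPM (243 to 289) in AT2, 1643 CPM (1548 to 1741) in transitional and 890 CPM (788 to 1001) in AT1 cells of WT. The KO values were 248 (243 to 253), 1508 (1475 to 1540) and 931 CPM (896 to 967). Transitional cells thus held 6.19-fold the AT2 level in WT and 6.07-fold in KO.

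Anxa8, an anticoagulant annexin of late endosomes, was close to an on and off gene in the alveolus. In WT no UMI was found in 374 AT2 cells, 62 were found in transitional cells (90.1 CPM, 69.1 to 116) and 6 in AT1 cells (19.4 CPM, 7.12 to 42.2). In KO there were 21 UMIs in AT2 cells (0.544 CPM, 0.337 to 0.832), each in a different cell, 800 in transitional cells (145 CPM, 135 to 156) and 49 in AT1 cells (17.3 CPM, 12.8 to 22.8). With the floor of 3 UMIs (1.49 CPM) for the AT2 sum, transitional cells were at least 60.6-fold above AT2 cells in WT, and the exact interval, which also covers the counting error of the 62 UMIs, began at 47.8-fold. They were 267-fold above them in KO (log2 8.06, 7.44 to 8.76). The signal was uneven between cells: 29 of 122 WT and 276 of 770 KO transitional cells had an Anxa8 UMI, and the cell with the most gave 8.06% and 3.38% of the UMIs.

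Anxa7, a membrane fusion protein studied in lamellar body secretion, and Anxa11, which binds Pdcd6 and tethers RNA granules to lysosomes, were also higher in transitional cells, by smaller ratios. Anxa7 was at 57.02 CPM in AT2, 179 CPM in transitional and 107 CPM in AT1 cells of WT, and at 47.1, 159 and 96.9 CPM in KO. Its log2 ratio of transitional over AT2 cells was 1.65 (1.27 to 2.03) in WT and 1.75 (1.63 to 1.87) in KO. Anxa11 was at 55.0, 121 and 71.2 CPM in WT and at 53.8, 128 and 93.7 CPM in KO. Its ratio of 1.13 (0.70 to 1.56) in WT and 1.25 (1.12 to 1.37) in KO fell to 0.72 and 0.75 with TMM scaling, below the 2-fold limit. An antisense gene, Anxa11os, overlaps Anxa11, and whether the counting used strand is not given in the sources used here.

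Anxa3, a calcium-dependent membrane binder best known from neutrophil granules, and Anxa5, the phosphatidylserine binder used as a probe of dying cells, were as high in AT1 as in transitional cells. Anxa3 was at 252 CPM (231 to 275) in AT2, 1118 CPM (1040 to 1200) in transitional and 1145 CPM (1029 to 1271) in AT1 cells of WT, and at 220, 1025 and 1091 CPM in KO. On the log2 scale the ratio of AT1 over transitional cells was 0.03 (-0.15 to 0.22) in WT and 0.09 (0.03 to 0.15) in KO. Anxa5 was at 200 CPM (181 to 220), 903 CPM (833 to 977) and 1090 CPM (977 to 1213) in WT, and at 158, 936 and 1115 CPM in KO. Its AT1 level lay slightly above its transitional level, with a log2 ratio of 0.27 (0.08 to 0.47) in WT and 0.25 (0.19 to 0.32) in KO.

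Anxa4 and Anxa6 were not higher in transitional cells. Anxa4, an annexin of epithelial apical membranes, was at 197 CPM (178 to 217) in AT2, 156 CPM (127 to 188) in transitional and 217 CPM (168 to 275) in AT1 cells of WT, and at 180, 176 and 262 CPM in KO. Its log2 ratio of transitional over AT2 cells was -0.34 (-0.66 to -0.03) in WT and -0.04 (-0.14 to 0.06) in KO. Anxa6, which carries a duplicated core and acts in endocytosis, was lower in transitional cells: 147 CPM (131 to 164) in AT2, 84.3 CPM (64.0 to 109) in transitional and 110 CPM (76.2 to 154) in AT1 cells of WT, and 131, 74.3 and 117 CPM in KO. The ratio was -0.80 (-1.23 to -0.39) in WT and -0.82 (-0.97 to -0.68) in KO. With TMM scaling, which lowers every ratio over AT2 cells, the Anxa6 ratio was -1.21 and -1.33, past the 2-fold limit. The Anxa4 ratio was then -0.75 (WT) and -0.54 (KO), lower but within the limit.

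AT1 over AT2 cells gave a smaller set. In WT, 8 of the 9 members had 50 UMIs and 4 of them were 2-fold or more higher (Anxa1, Anxa2, Anxa3 and Anxa5), beside 18.3% of 5846 genes. In KO all 9 members passed, Anxa8 through its AT1 UMIs, and 6 were higher, Anxa7 (log2 1.04, 0.85 to 1.23) and Anxa8 (4.99, 4.22 to 5.80) being added, beside 19.3% of 12093 genes. The Anxa7 ratio in KO was 0.64 under TMM and 0.74 with the denominator without mitochondrial, ribosomal protein and surfactant genes, which left 5, Anxa8 among them. The share of all genes past 2-fold was not computed under either. With 50 UMIs required in AT2 cells alone, 4 of 8 were higher in WT and 5 of 8 in KO, beside 14.6% and 17.9% of genes. In WT Anxa7 was at 0.90 (0.30 to 1.47), and Anxa8 did not reach 50 UMIs. No member was 2-fold lower, beside 12.6% of genes in WT and 9.53% in KO. Anxa1 had a log2 ratio of 3.34 (3.08 to 3.59) in WT and 3.39 (3.31 to 3.46) in KO. Anxa5 was at 2.45 (2.23 to 2.66) and 2.82 (2.76 to 2.89), and Anxa3 at 2.18 (1.98 to 2.38) and 2.31 (2.25 to 2.37). Over those 8 members the median log2 ratio was 1.33 in WT and 1.47 in KO, beside 0.20 and 0.35 over all genes that passed. Directions of the small ratios in WT depended on the scaling: Anxa4 went from 0.14 (-0.26 to 0.52) to -0.27 and Anxa11 from 0.37 (-0.36 to 1.04) to -0.03 under TMM.

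Between the 2 later states, AT1 over transitional cells, no member was 2-fold higher in either library, beside 11.2% of 3701 genes in WT and 7.69% of 10231 in KO. Of the 9 members with 50 UMIs, 1 was 2-fold lower in WT and 2 in KO, beside 11.6% and 9.94% of genes. Anxa8 passed that minimum only through the transitional cells, with 62 (WT) and 800 (KO) UMIs there against 6 and 49 in AT1 cells. It therefore adds no support to these counts. Without Anxa8 no member was left in WT and only Anxa1 in KO, which was near the share of all genes in both libraries. Anxa8 was the lower one in WT (log2 -2.22, -3.72 to -1.01), and in KO Anxa8 (-3.07, -3.52 to -2.66) and Anxa1 (-1.24, -1.30 to -1.17). In WT Anxa1 was at -0.89 (-1.07 to -0.71). Anxa2 had -0.88 (-1.08 to -0.69) in WT and -0.70 (-0.76 to -0.63) in KO.

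The make-up of the family changed with these steps. Each UMI is 1 captured 3' end, so gene length does not enter these shares. In AT2 cells Anxa2 gave the largest share of all annexin UMIs, 20.8% in WT and 22.02% in KO, and Anxa1 gave 8.15% and 7.84%. Anxa3 was close to Anxa2 in WT AT2 cells, with 509 against 535 UMIs and overlapping intervals. In transitional cells Anxa1 led with 31.2% and 34.4%. In AT1 cells 4 members were close to each other: Anxa3 held 24.4% in WT and 23.5% in KO, Anxa5 23.2% and 23.996%, Anxa1 22.4% and 19.9%, and Anxa2 18.9% and 20.02%. Anxa4 gave 15.4% and Anxa6 11.5% of the annexin UMIs in WT AT2 cells, and 2.49% and 1.35% in WT transitional cells.

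The same order was seen per cell. With every cell thinned to 1000 UMIs, Anxa1 was detected in 12.03% (8.91 to 15.8) of 374 WT AT2 cells, 63.6% (54.4 to 72.2) of 121 transitional cells and 54.3% (41.9 to 66.3) of 70 AT1 cells. In KO it was 7.17% (6.47 to 7.92) of 4964, 71.9% (68.6 to 75.1) of 755 and 52.3% (47.6 to 56.9) of 461 cells. T cells, where Anxa1 is low, gave 3.36% of 1695 WT cells and 5.32% of 94 KO cells, with median depths before thinning of 2599 and 2992 UMIs against 5181 and 7411 in AT2 cells. The WT AT2 share lay above that of the T cells. The KO AT2 share lay inside the wide interval of the 94 KO T cells (1.75 to 11.98), while the CPM of the summed cells, 88.4 in AT2 cells, was apart from the 50.7 CPM of T cells. Without thinning the AT2 shares were 30.7% and 34.8%. Anxa8 was detected in 9.92% (5.23 to 16.7) of WT and 13.1% (10.8 to 15.7) of KO transitional cells, and in 0 of 374 WT AT2 cells, which allows a share of up to 0.802% (3 of 374) for cells with a UMI at this depth, not for cells that express the gene. After thinning 0 of 1695 WT and 0 of 94 KO T cells held Anxa8, for which the same limits are 0.177% and 3.19%. Over the family, 7 of 9 members were in a larger share of transitional than of AT2 cells in both libraries, and 8 of 9 in a larger share of AT1 than of AT2 cells. The same was not counted over all genes, so these counts do not set the family apart. Over all genes with 50 UMIs in AT2 cells the median log2 ratio of CPM was also above 0. It was 0.23 (WT) and 0.43 (KO) for transitional and 0.20 and 0.35 for AT1 over AT2 cells.

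To see the members without the cut of a transitional gate, cells were ordered by the AT1 share of their AT1 and AT2 marker UMIs. They were pooled into 7 bins. Taken were AT2, transitional and AT1 cells and epithelial cells of no assigned type, with at least 10 such UMIs. Gated ciliated, club, goblet-like secretory and basal cells were left out. Anxa1 in KO was at 75.1 CPM where AT1 markers made up under 5% of the marker UMIs, was at 599 CPM in the bin from 20 to 40% and 1227 CPM from 40 to 60%, peaked at 2255 CPM from 60 to 80%, and was at 1520 CPM above 95%. Krt8 in these KO bins was highest, at 1495 CPM, from 80 to 95%. Anxa3 had no such peak: in KO its level increased at every step, from 195 to 1422 CPM. Anxa5 went from 130 to 1447 CPM and Anxa2 from 230 to a highest value of 1485 CPM in the bin from 80 to 95%. Anxa6 drifted down from 131 to 100.2 CPM and Anxa4 up from 172 to 266 CPM.

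The WT library gave the same ends with wider intervals. Anxa1 was at 90.0 CPM in the first WT bin (181 cells) and 1210 CPM in the last (74 cells), and Anxa3 at 229 and 1348 CPM. The bin from 40 to 60% held 10 WT cells against 150 in KO, and its Anxa1 value of 3348 CPM rests on them. Without that bin the highest WT value of Anxa1 was 1836 CPM, from 80 to 95%, where WT Krt8 was also highest, at 1869 CPM. In the last bin 6 of 9 members in WT and 7 of 9 in KO were at least 2-fold above the first. The share over all genes was not computed, so the count does not set the family apart. Anxa8 had 0 UMIs in the first WT bin, and Anxa11 in KO, at 51.6 and 103.8 CPM, lay at the limit. The last bin is not made of gated AT1 cells alone: in KO it held Cldn4 at 101 CPM and Sfn at 227 CPM, markers of the transitional list, against 12.7 and 66.2 CPM in the KO AT1 gate, and Anxa8 at 96.6 CPM against 17.3 CPM. Their part in the count was not tested.

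**Figure D2:**
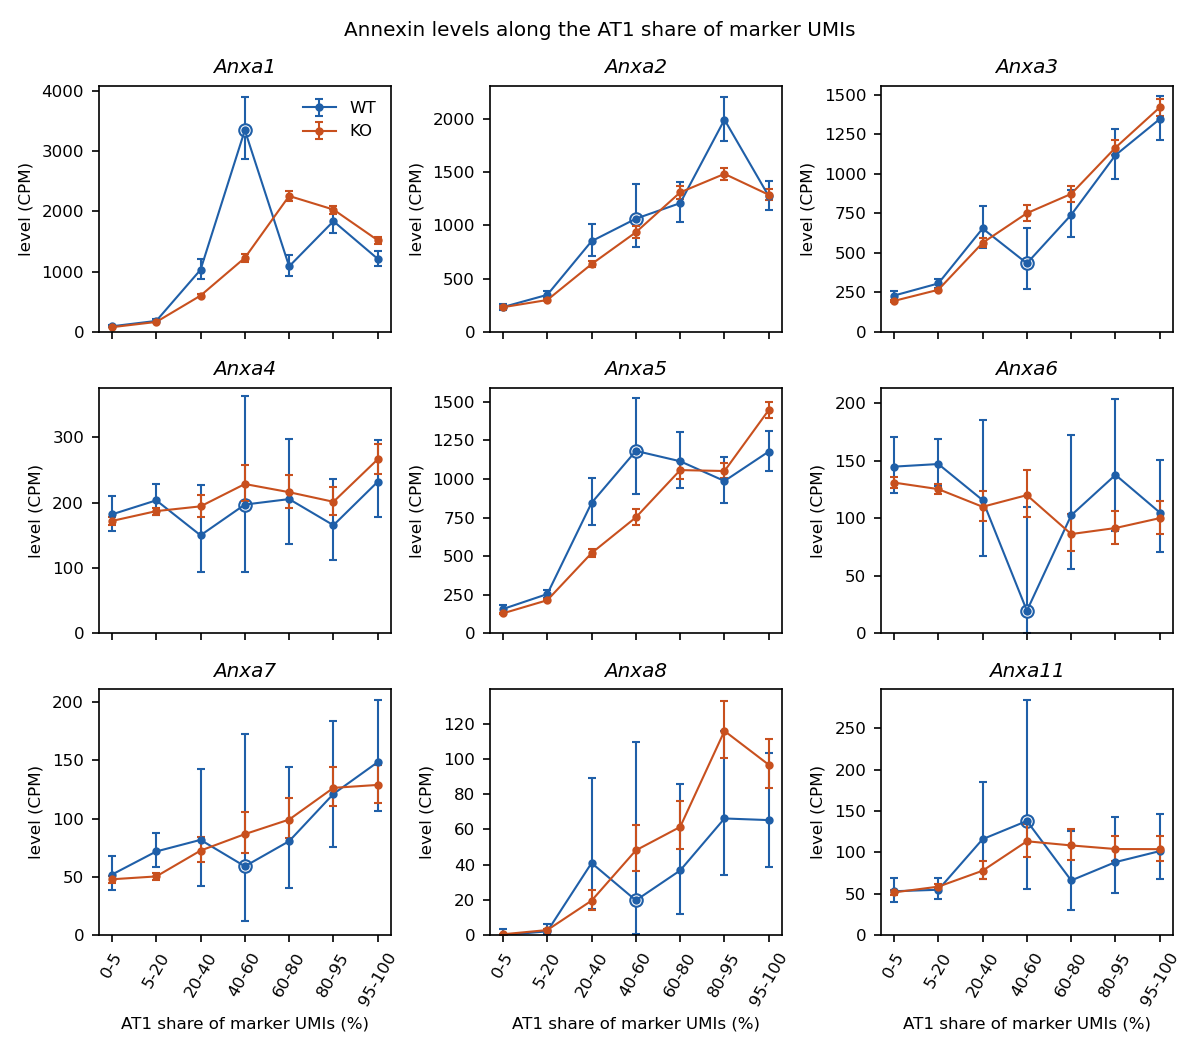
Level of each annexin (CPM, linear axes from 0) by the percent of AT1 UMIs among AT1 and AT2 marker UMIs, for WT (blue) and KO (orange). Pooled are AT2, transitional and AT1 cells and epithelial cells of no assigned type, without gated airway cells. Bars are exact 95% Poisson intervals, and open rings mark the WT bin with 10 cells. Anxa3 increases at every step in KO, Anxa1 peaks at 2255 CPM before the last bin in KO, and Anxa4 and Anxa6 change little.

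Between the genotypes no ratio of a member with 50 UMIs passed 2-fold in the 3 alveolar cell types, which was near the share of all genes. A larger difference is not excluded for each: intervals reached past 2-fold for Anxa8 in transitional cells (to 1.09). They also did so in AT1 cells for Anxa8 (-1.39 to 1.35) and Anxa11 (to 1.10). In AT2 cells 8 members had 50 UMIs and 0 were 2-fold higher or lower in KO, beside 2.97% and 3.01% of 11937 genes. The same count of 0 in both directions was found for 9 members in transitional cells, beside 4.23% higher and 1.95% lower of 9555 genes, and for 9 members in AT1 cells, beside 4.11% and 2.21% of 7283 genes. For the members the median KO/WT ratio, on the log2 scale, came to -0.18 in AT2, 0.05 in transitional and 0.03 in AT1 cells, and -0.12, -0.06 and -0.06 for all genes. All 8 members measured in AT2 cells had a ratio below 0, the lowest being Anxa5 at -0.34 (-0.49 to -0.19). The highest of them, Anxa11 at -0.03, lay above 61.5% of the tested genes. Most genes were thus below 0 too, and the count does not set the family apart. With every cell thinned to an equal depth, Anxa5 was at -0.71 and Anxa7 at -0.79, while Anxa2 alone moved toward 0, to -0.08. TMM scaling moved the all-gene median by 0.18 in AT2 cells, and the AT2 ratios of Anxa2, Anxa4, Anxa6 and Anxa11 were then above 0.

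The largest of these ratios was that of Anxa8 in transitional cells, 90.1 CPM (WT) and 145 CPM (KO), a log2 ratio of 0.69 (0.32 to 1.09). It was 0.13 when cells with markers of 2 lineages were kept. Markers of other airway cells were not equal in the transitional cells of the libraries: the 8 club markers summed to 1092 CPM (WT) and 4742 CPM (KO), the basal markers to 0 and 26.2 CPM (8 of 8 at 0 in WT, Krt5 at 0 in both), and the ciliated markers to 132 and 205 CPM. Their part in the Anxa8 ratio was not tested. Anxa1 in transitional cells had a ratio of 0.16 (0.08 to 0.24), and in AT2 cells of -0.24 (-0.44 to -0.03). With 1 library per genotype, genotype, library and the make-up of the sort cannot be told apart.

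**Figure D3:**
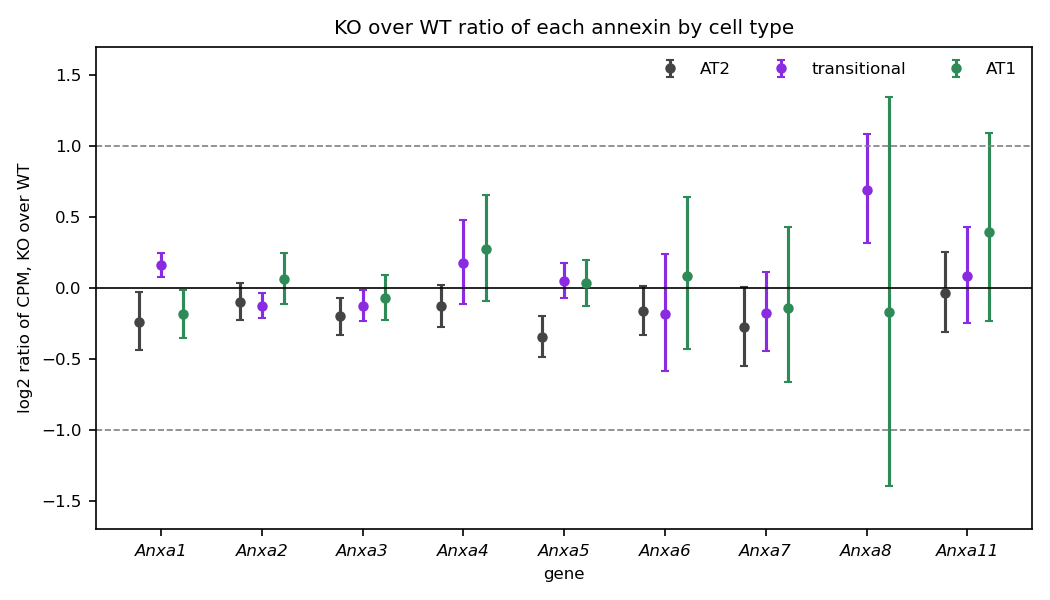
Log2 ratio of CPM, KO over WT, of each annexin with at least 50 UMIs in AT2 (grey), transitional (purple) and AT1 (green) cells. Bars are exact 95% intervals for 2 Poisson counts, dashed lines mark 2-fold, and all points lie inside them. Anxa8 in transitional cells, at 0.69, is farthest from 0.

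AT2 cells were also compared by their Lcn2, the lipocalin that marks activated AT2 cells, in 3 ranges of equal size within each library. In WT the highest Lcn2 range (125 cells) over the lowest (125 cells) gave a log2 ratio of -0.86 (-1.21 to -0.51) for Anxa5 and -0.65 (-1.15 to -0.15) for Anxa1. In KO (1655 cells each) Anxa5 was at -0.18 (-0.27 to -0.09) and Anxa1 at 0.26 (0.14 to 0.39). Anxa5 thus lay on the same side of 0 in both libraries and Anxa1 did not. No member passed 2-fold in either direction in either library, beside 1.21% of genes higher and 1.21% lower in WT and 2.10% and 0.979% in KO.

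Markers of cell types that the sort should remove were present in the 3 alveolar gates at a higher level in WT. The 10 immune markers summed to 245 CPM (WT) and 165 CPM (KO) AT2 cells, 167 and 57.9 CPM in transitional cells, and 262 and 66.6 CPM in AT1 cells. The 10 endothelial markers were at 193 and 107 CPM, 156 and 62.1 CPM, and 288 and 184 CPM in the same order. The 10 mesenchymal markers were the highest and summed to 519 and 272 CPM, 423 and 221 CPM, and 767 and 198 CPM. No list summed to 0. Of the immune and endothelial markers Tie1 was at 0 in WT transitional cells and Ptprc in KO AT1 cells, and of the mesenchymal ones Lum was at 0 in all 3 WT gates and in KO AT1 cells, Pdgfrb in the AT1 cells of both libraries and Col1a1 in WT AT1 cells. Their part in the annexin ratios was not tested.

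Over the other cell types each member had its own distribution. Levels were compared for cell types with at least 30 cells, 18 of them in both libraries. Anxa1 was highest in transitional cells, then in AT1 and ciliated cells (855 CPM in WT, 842 CPM in KO), and low in most of the endothelium, at 19.2 CPM in WT general capillary cells against 31.2 CPM in KO, although WT lymphatic endothelial cells held 152 CPM. Of the blood cells neutrophils held most Anxa1 in WT, with 430 CPM, clear of the next cell type. In KO their 307 CPM, on 18 UMIs, overlapped the 300 CPM of non-alveolar macrophages. Anxa2 was second highest in alveolar macrophages, with 1152 CPM (WT) and 1238 CPM (KO), after the transitional cells and clear of the next cell type in both libraries.

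Anxa3 beyond the alveolar epithelium was highest in aerocytes, the capillary cells that face AT1 cells: 522 CPM (WT, where mesothelial cells at 514 CPM overlapped) and 588 CPM (KO), above the 296 and 312 CPM of general capillary cells. Anxa5 reached 552 and 576 CPM in fibroblasts and 463 and 591 CPM in non-alveolar macrophages, whose intervals overlapped in KO and not in WT. Anxa6 was highest in smooth muscle cells (280 CPM in WT, 220 CPM in KO), with an interval that overlapped that of the next cell type in each library. In WT it was followed by NK cells (276 CPM) and pericytes (236 CPM), and it was at 232 and 178 CPM in fibroblasts and 193 and 169 CPM in T cells, and in club cells it was at 31.2 and 29.8 CPM. Anxa11 was highest in neutrophils (314 and 256 CPM) and ciliated cells (238 and 180 CPM), with intervals that overlapped in KO. Anxa4 differed little between AT1, AT2 and ciliated cells and alveolar macrophages in WT, at 217, 197, 208 and 234 CPM, while in KO AT1 cells, at 262 CPM, stood apart from the others at 180, 179 and 164 CPM.

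Anxa8 was the most restricted member. Besides transitional cells it was found in ciliated cells, at 163 CPM (98 UMIs) in WT and 160 CPM (1298 UMIs) in KO, and in mesothelial cells, at 78.7 and 87.3 CPM. In KO basal cells reached 233 CPM and goblet-like secretory cells 99.3 CPM, both of which had too few WT cells (6 each) to give a level. Club cells, also airway epithelium, were at 3.12 CPM (2 UMIs) in WT and 2.63 CPM (19 UMIs) in KO, T cells held 2 and 0 UMIs, and smooth muscle cells 3.48 CPM (3 UMIs) and 12.4 CPM (9 UMIs).

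Between the genotypes the members were also compared in 12 other cell types, where the KO sums of blood and endothelial cells rest on 33 to 94 cells. No member was 2-fold higher or lower in ciliated cells (4.56% of genes higher, 1.72% lower), club cells (4.66% and 3.29%), fibroblasts (1.03% and 1.26%), smooth muscle cells (1.08% and 2.19%), alveolar macrophages (1.51% and 7.39%), T cells (2.74% and 19.1%) or general capillary cells (3.28% and 11.8%). Mesothelial cells, the lining of the lung surface, gave 1 member higher of 9, Anxa1, beside 3.22% of genes higher and 1.68% lower. Anxa1 there was at 272 CPM (90 UMIs) in WT against 545 CPM (381 UMIs) in KO, a log2 ratio of 1.00 (0.67 to 1.35), so it lay at the 2-fold limit. Non-alveolar macrophages gave 1 of 8 lower, Anxa11 on 7 KO UMIs, beside 3.40% higher and 13.9% lower. Aerocytes gave 1 of 8 lower, Anxa1 on 1 KO UMI, beside 2.26% and 7.03%. B cells gave 3 of 8 lower (Anxa3, Anxa4 and Anxa7, on at most 3 KO UMIs each), beside 3.14% and 26.5%, and neutrophils 3 of 8 (Anxa4, Anxa5 and Anxa6, on at most 2), beside 4.29% and 29.1%. The intervals of those 6 ratios all reached above 0, and 3 of the KO sums (Anxa3 in B cells, Anxa4 and Anxa6 in neutrophils) were at 0, so no fold is given for them.

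Mesothelial cells and fibroblasts, both mesenchymal here, held different annexins. In mesothelial cells Anxa3 reached 514 CPM (WT) and 309 CPM (KO), against 48.5 and 27.4 CPM in fibroblasts. Anxa6 was at 63.5 and 90.2 CPM in mesothelial cells, below the 232 and 178 CPM of fibroblasts.

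**Figure D4:**
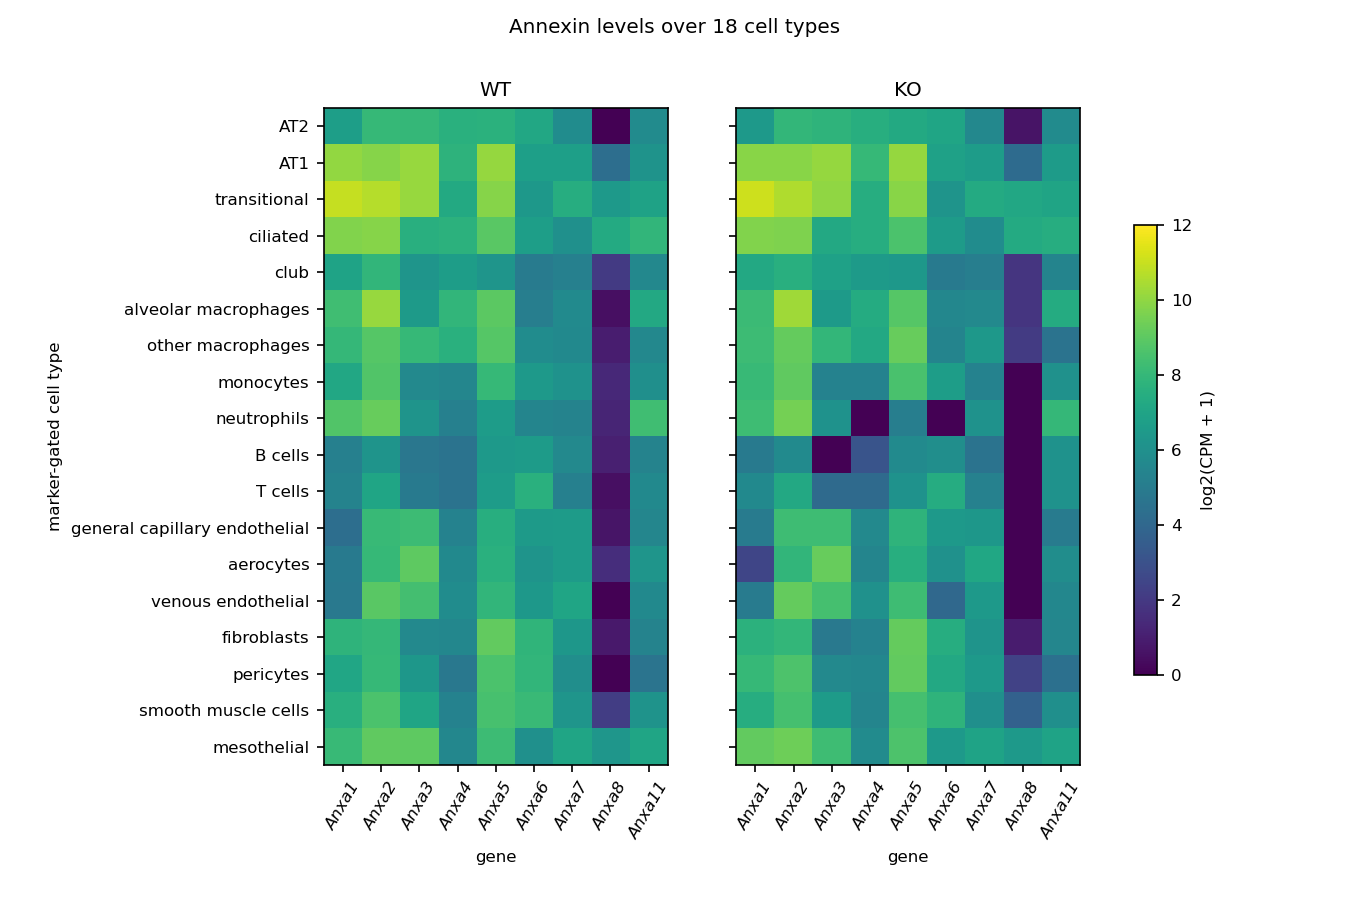
Level of each annexin, as log2(CPM + 1) by colour, in the 18 marker-gated cell types with at least 30 cells in both libraries (rows), for WT (left) and KO (right). Anxa1, Anxa3 and Anxa5 are brightest in AT1 and transitional cells. Anxa2 is brightest in transitional cells and then alveolar macrophages, and Anxa6 is brightest in smooth muscle cells. Anxa8 is brightest in transitional, ciliated and mesothelial cells, with fainter values in AT1 cells and in KO smooth muscle cells. Dark cells of KO immune and endothelial types rest on few cells.

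Across the 18 cell types the patterns of members were alike to different degrees, which is given as a description over types that share a library and differ in depth. Anxa1 and Anxa2 had a Pearson r of log2(CPM + 1) of 0.77 in WT and 0.70 in KO, Anxa3 and Anxa7 of 0.77 and 0.78, and Anxa1 and Anxa8 of 0.68 and 0.76. Anxa6 and Anxa11 had a negative r, -0.45 and -0.39. Among 12325 genes with at least 200 UMIs in each library, the gene most like Anxa1 in WT was S100a11 (r 0.93; 0.80 in KO), followed by Plp2 and Lrrfip2, and in KO Rnh1, F3 and S100a11. The gene most like Anxa2 in WT was Chmp2a (r 0.90; 0.84 in KO), and Etfb was among the 3 most like Anxa4 in both libraries (0.89 and 0.94). For the 6 other members no gene was among the 3 most like it in both libraries.

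A list of 17 partner genes was read beside the family. Of the 4 EF-hand partners 3 were 2-fold or more higher in transitional than in AT2 cells in WT and 4 in KO, the exception being S100a4 in WT (31.2 and 42.2 CPM). S100a10, the Anxa2 partner, was at 204 CPM in AT2, 1811 CPM in transitional and 686 CPM in AT1 cells of WT, and at 170, 1716 and 497 CPM in KO. S100a11, a partner of Anxa1, was at 769, 4283 and 2588 CPM in WT and at 632, 4155 and 2434 CPM in KO. S100a6 was at 207, 7327 and 5871 CPM in WT and at 104, 6501 and 4920 CPM in KO. Of the partner genes with 50 UMIs in AT2 cells alone, 7 of 8 in WT and 8 of 8 in KO were 2-fold or more higher in transitional than in AT2 cells, against the same 16.3% and 25.4% of all genes. Plaur in both libraries and Plat and Plau in KO reached 50 UMIs only with the transitional cells.

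Of the membrane repair genes, Ahnak, a large scaffold that binds the Anxa2 complex, was highest in AT1 cells, with 228, 1115 and 1601 CPM in WT AT2, transitional and AT1 cells and 193, 882 and 1307 CPM in KO. Pdcd6, the calcium sensor that binds Anxa11, had a log2 ratio of transitional over AT2 cells of 2.05 in WT and 2.01 in KO, and Chmp4b, an ESCRT subunit, of 1.36 and 1.23. Dysf and Trim72 were at or below 7.27 CPM in all 3 cell types. Of the plasminogen system, Plaur, the urokinase receptor, was at 2.48 CPM in AT2, 211 CPM in transitional and 22.6 CPM in AT1 cells of WT and at 0.492, 153 and 17.6 CPM in KO. Plg had no UMI in these cells, and the formyl peptide receptors Fpr1, Fpr2 and Fpr3 had at most 3.23 CPM.

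Between genotypes S100a4 was the 1 partner gene past 2-fold in AT2 cells (of 8, beside 3.01% of genes lower in KO) and in transitional cells (of 11, beside 1.95%): 31.2 CPM (WT) and 2.25 CPM (KO) in AT2 cells, and 42.2 and 15.1 CPM in transitional cells. S100a4 was also 2-fold or more lower in KO in fibroblasts, both macrophage gates, neutrophils, aerocytes and general capillary cells. The immune markers given above were higher in WT AT2 and transitional cells too, and their part in it was not tested. Of the annexins outside the 9, Anxa10 had 3 UMIs in WT and 72 UMIs in KO transitional cells (4.36 and 13.1 CPM) and at most 2 in AT2 cells, while Anxa9 stayed at or below 4.36 CPM in the 3 cell types.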

How the data were processed

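Lung cells of Pclaf WT and KO mice were profiled by droplet 3' single-cell RNA sequencing, 1 library each. The authors deposited matrices of raw UMI counts per gene and barcode, which are not normalized. Per the file headers the matrices come from Cell Ranger 5.0.0, while the submitters' processing notes name Cell Ranger 3.1.0 with STAR, and the methods name GRCm38. The lowest barcode total was 500 UMIs in both files, and 0 columns were left unmapped.

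The filter took cells with over 200 but less than 5000 genes seen and a mitochondrial share below 20%. A lineage needed at least 4 of its 10 markers and 2 more than any other lineage. Cells with 4 or more markers of a second lineage, 12.3% of WT and 4.23% of KO cells, were left out as possible doublets, and no doublet caller was run. 20.0% and 14.8% had no lineage. A cell type was the highest mean z score over its 8 markers, with a margin of 0.3 and at least 4 detected markers (3 outside the epithelium). Of the AT2, transitional and AT1 cells, 25, 8 and 4 in WT and 353, 58 and 35 in KO lay less than 0.1 above that margin. The gate limits were set after the marker values were seen.

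UMIs were summed per cell type and library and given as CPM. Genes with at least 50 UMIs over both sums were compared, and a log2 ratio of at least 1 or at most -1 counted as 2-fold. Counts over AT2 cells were also taken over genes with 50 UMIs in the AT2 sum alone, which was added after the values were seen. Ratios, levels and shares carry exact 95% conditional, Poisson and Clopper-Pearson intervals. Where a sum was 0, 0.5 was added to both. UMIs of a droplet library stand for molecules, and intervals and floors of 3 counts cover counting error only. Shares of cells used cells thinned to 1000 UMIs, which left out 15 AT1 and 1 transitional cell of WT and 14 and 15 of KO. On Poisson counts drawn from means shared by both cell types, with known folds set, 99.0% of 97 genes changed 4-fold were recovered for AT1 over AT2 cells in WT among 5870 genes, and 96.0% of intervals held the true value. Those draws hold no spread between cells and no shift in composition. They check the calculation only, not how well the intervals cover real data.

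The 9 members, the 17 partner genes and the named genes (the members, the other annexins, the partners, Pclaf, markers that check a gate and the 3 genes most like each member) were chosen with earlier results of these data known. Promoters came from RefSeq (GRCm38.p6), 250 bases before to 50 after the start. Python 3.11.15, scipy 1.17.1, pandas 2.3.3 and, for TMM scaling, edgeR 4.0.16 in R 4.3.3 were used. 13 alternatives were tried for each count of members past 2-fold, and fewer for the counts by share of cells and by AT1 share of marker UMIs.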

Additional observations from a re-analysis of the deposited data

Results flagged for a closer look

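Members whose KO over WT ratio lay above 0 in at least 1 cell type and below 0 in another, with both intervals away from 0, were looked for over 15 cell types. Anxa1 was higher in KO mesothelial cells (log2 1.00, interval 0.67 to 1.35; WT 272 CPM, KO 545 CPM) and lower in KO aerocytes (-2.61, -7.93 to -0.07, on 1 KO UMI). Anxa2 was higher in KO non-alveolar macrophages (0.34, 0.11 to 0.55) and lower in KO club cells (-0.35, -0.59 to -0.10). Anxa3 was higher in KO club cells (0.59, 0.18 to 1.04) and lower in KO fibroblasts (-0.82, -1.35 to -0.30), with -0.73 (-1.03 to -0.44) in mesothelial cells. Anxa5 was higher in KO mesothelial cells (0.44, 0.10 to 0.79) and lower in KO AT2 cells (-0.34, -0.49 to -0.19). Of these, the Anxa1 ratios in mesothelial cells and aerocytes passed 2-fold, beside 3.22% of genes higher in KO mesothelial cells and 7.03% lower in KO aerocytes.

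In AT2 cells, the highest over the lowest range of Lcn2 gave opposite signs in the libraries for Anxa1 (-0.65 in WT, 0.26 in KO) and for Anxa2 (-0.32, -0.63 to -0.01, in WT and 0.16, 0.09 to 0.23, in KO). None of these differences between cell types or libraries was tested, since each library is 1 sample. The ratios were picked from many for their signs.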

How the results depend on the processing

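No paired analysis was possible because each genotype has 1 library and no result comes from a test. Of 254 recomputed counts 245 stayed within 1.5 times the main value, and of 855 recomputed single ratios 136 left their main interval, while 0 of those past 2-fold changed sign. Many of the main counts were 0, among them all counts between the genotypes in alveolar cells. For these, staying within the limit means 0 again, so the 245 say little on the counts above 0. For transitional over AT2 cells, TMM factors and a denominator without mitochondrial, ribosomal protein and surfactant genes each gave 1 lower member in WT and 1 in KO in place of 0, which was Anxa6. TMM moved the median of all genes in that comparison by -0.41 in WT and -0.50 in KO, and for AT1 over AT2 cells by -0.41 and -0.40. Thinning every cell to 1000 UMIs gave 4 higher and 1 lower member in WT for transitional over AT2 cells, with fewer members at 50 UMIs by construction. For AT1 over transitional cells in WT, the mean of single-cell CPM gave 3 lower members in place of 1, cause not tested, and a minimum of 200 UMIs gave 0. A minimum of 10 UMIs gave 1 higher member in KO AT2 cells, Anxa8, against a WT sum of 0. The Anxa8 ratio of KO over WT in transitional cells ranged from 0.13 (cells of 2 lineages kept) to 0.80 (1 more marker per gate). Small WT cell numbers (85 AT1 and 122 transitional cells) limit the low members Anxa6, Anxa7, Anxa8 and Anxa11 most.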

Other observations

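Alveolar cells with at least 3 cycling markers numbered 9 in WT and 128 in KO. In the KO cycling cells Anxa1 was at 367 CPM, Anxa2 at 511 CPM, Anxa5 at 267 CPM and Anxa8 at 9.42 CPM (13 UMIs), between the KO AT2 and transitional levels for these 4 genes, while Anxa7 was at 33.3 CPM, below both. These cells also belong to the AT2, transitional and AT1 gates, and the WT sums rest on 9 cells: Anxa1 was at 1079 CPM there, with 55.3% of its UMIs in 1 cell.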
